A study of Mus musculus with 6 samples.

Results

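The genes of voltage-gated ion channels and their relatives were followed in the rostral forebrain of mouse embryos lacking Fezf1 and Fezf2, a pair of genes for forebrain transcription factors, and in wild-type embryos. Members were all genes whose symbol in the platform annotation has the form of a Kcn subunit (Kcn, a letter and a number), a Scn, Cacn or Hcn subunit, apart from Kcne2, and each was read by its brightest probe set. This gave 105 genes of 18194 with a probe set of their own. The groups were Fezf1-/- Fezf2-/- and wild type, each sampled at 3 embryonic ages (day 9.5, E9.5; day 10.5, E10.5; day 12.5, E12.5), with 1 array per group and 6 in all. The tissue was the forebrain rostral to where the lateral ventricles end caudally, and the labels do not give the number of embryos behind an array. The label of the gene set is wider than voltage gating: 15 members are inward rectifiers and 12 are 2-pore-domain leak channels, neither of which has the voltage sensor of voltage-gated potassium channels. The 3 Kcne genes are accessory subunits, and 7 members were grouped by symbol as calcium- or sodium-activated potassium channels. The values measure RNA on an array and no current.

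Voltage-gated sodium, calcium and potassium channels open when the membrane depolarises, and give neurons their action potentials, calcium entry and repolarisation. The pore is made by alpha subunits, and accessory subunits set where the channel goes and how it gates. Leak channels and inward rectifiers hold the resting potential. In the embryonic forebrain, progenitors have few sodium currents, and excitability appears as neurons are born.

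Arrays are given as signal after quantile normalization, and differences as log2(signal + 6.50), where 1 is 2-fold and the change of a dim gene is understated. Of the 105 members, 34 had a mean above the median of all probe sets and were tested, among 11091 genes. Of the other 71, 40 stayed below the median of all values, a signal of 24.0, on every array. Deposited medians ran from 14.2 to 37.1 between arrays, and were lowest in the E10.5 pair and highest in the E12.5 pair. Fezf2 signal was 0.458, 0.904 and 1.66 in the knockout, E9.5 then E10.5 then E12.5, against 78.9, 146 and 249 in wild type. Fezf1 signal was 97.7, 78.4 and 49.5 in the knockout, against 251, 143 and 174 in wild type. All 7 measured forebrain markers, Six3, Emx2, Lhx2, Otx2, Pax6, Dlx2 and Sox2, lay above the median signal on all 6 arrays.

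The first comparison asked how the channel genes changed from E9.5 to E12.5. By the probe set read for each gene, 12 of 17 tested sodium and calcium channel subunits rose and 0 fell. Scn3a, Scn3b, Cacna2d1 and Cacng4 led the rise. Potassium channels split: the A-type genes Kcnd2 and Kcnd3 and the leak channels Kcnk2 and Kcnk10 rose, while Kcna1, Kcna5, Kcnk1, Kcnk6, Kcnn4, Kcne3 and Kcnj11 fell. Of the 34 tested members 17 rose and 8 fell (limma adjusted p under 0.05, genotype as a covariate). Among all tested genes 25.9% rose and 36.9% fell. The all-gene shares depend on the scaling of the arrays: in the values as deposited 23 members rose and 6 fell, against 49.2% and 15.0% of all genes, and with a common trimmed mean 18 rose and 6 fell, against 29.9% and 31.2%. The median difference was 0.47 over the tested members and -0.14 over all tested genes. Both genotypes moved in the called direction in all 17 and all 8. The call itself favours this, because disagreement between the genotypes counts as error in the fit. The 17 include 9 that lay under the median signal on both E9.5 arrays and passed the filter through a later age. Likewise, the 8 include 6 that lay under the median signal on both E12.5 arrays and passed the filter through an earlier age. Without the filter, all 105 members gave 28 higher (26.7%) and 10 lower (9.52%), where all 18194 genes gave 16.0% higher and 21.6% lower. Leaving out 1 array at a time, the count of rising members was lowest without the wild-type E12.5 array. That fit has 1 array at E12.5, and no all-gene count stands beside it. Differences below are E12.5 minus E9.5 with limma's moderated SE, from 2 arrays per age. With 1 array per genotype and age, age cannot be told apart from anything else that differed between the pairs of arrays.

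**Figure D1:**
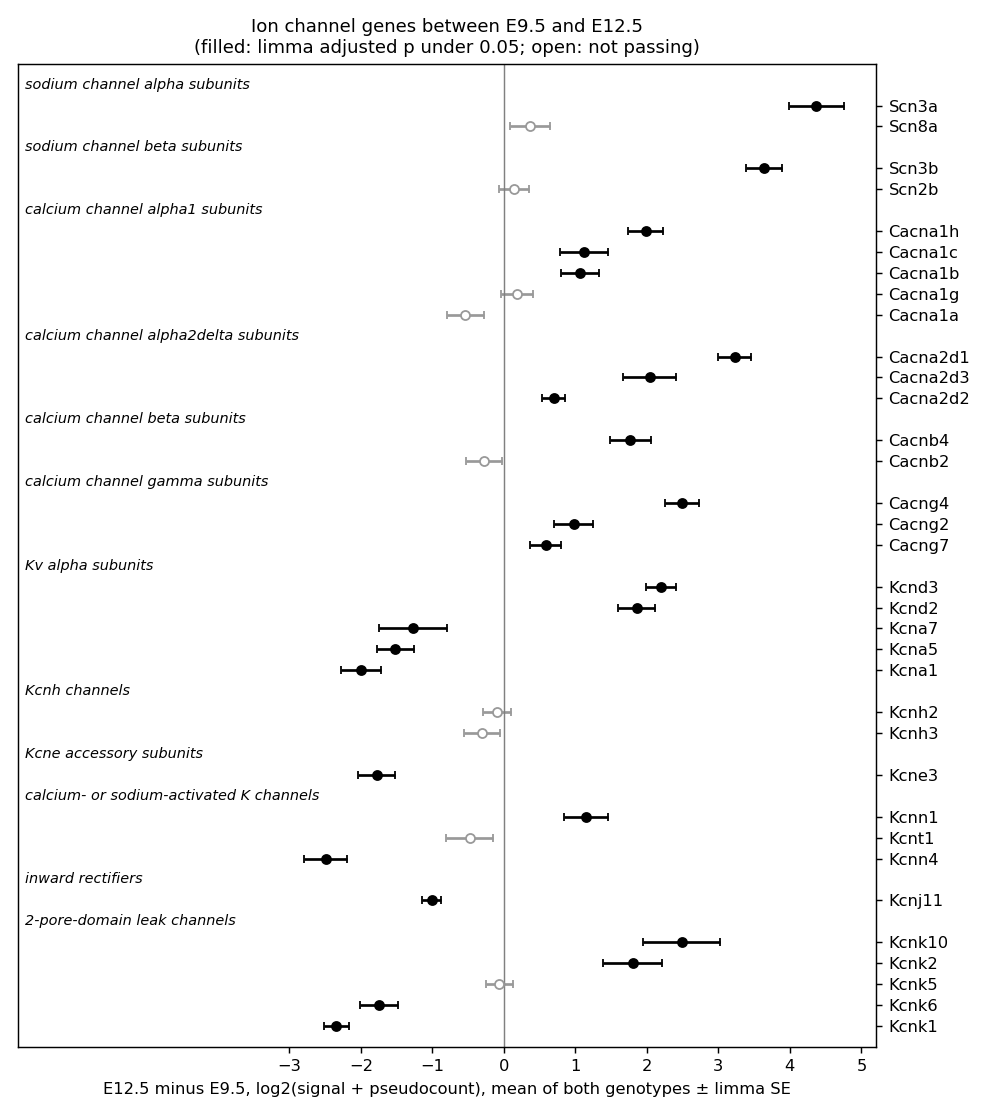
Difference between E12.5 and E9.5 for each of the 34 tested ion channel genes, on the log2(signal + pseudocount) scale, by family. Points are limma estimates over both genotypes, bars are the moderated SE, and filled points passed at an adjusted p under 0.05. Tested calcium channel alpha2delta and gamma subunits all lie right of 0, while Kv alpha subunits and 2-pore-domain leak channels lie on both sides.

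Scn3a, the pore of the sodium channel of embryonic neurons, had the largest rise. Its signal was 11.8, 22.3 and 217 in the knockout, E9.5 then E10.5 then E12.5, against 0.639, 30.7 and 244 in wild type. Both E12.5 arrays stood far above all others, and the difference was 4.37 ± 0.38 (adjusted p = 1.2e-05). The second Scn3a probe set lay under the median signal on all arrays and differed by -0.09. Scn3b, an accessory beta subunit, had signals of 10.97, 5.53 and 189 in the knockout, against 11.8, 9.71 and 247 in wild type. It was low at both early ages and high in both genotypes at E12.5 (3.64 ± 0.26, adjusted p = 3.46e-06). The other 2 sodium channel subunits tested did not pass: Scn8a, a pore subunit of the mature axon, differed by 0.36 ± 0.28 and the beta subunit Scn2b by 0.14 ± 0.20. Both were already above the median signal at E9.5 in each genotype. Their other probe sets differed from these values. The second Scn2b probe set, second by deposited values, had 88.5, 56.1 and 30.1 in the knockout, against 109.9, 66.4 and 21.1 in wild type (-1.73). At E9.5 it was brighter than the probe set read here, which had 53.8 in the knockout and 41.5 in wild type. Of 4 dimmer Scn8a probe sets, 3 differed by 1.65, 1.13 and 1.11 and the last by 0.09.

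Calcium channel genes made up 10 of the 17 that rose, and none of their 13 tested members fell. All 3 tested alpha2delta subunits, which bring the pore to the cell surface, rose. Cacna2d1 signal was 42.1, 24.98 and 332 in the knockout, E9.5 then E10.5 then E12.5, against 33.97, 40.6 and 503 in wild type. The early ages overlapped and the E12.5 arrays stood apart in both genotypes (3.23 ± 0.23, adjusted p = 3.71e-06). Its 4 dimmer probe sets differed by 0.53 to 1.87, all upward. Cacna2d3 rose by 2.04 ± 0.37 and Cacna2d2, which was bright at every age, by 0.69 ± 0.16. The dimmer Cacna2d2 probe sets lay under the median signal on all arrays and differed by -0.46 and 0.17.

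Among the pore subunits, Cacna1h, a T-type channel that opens near rest, passed in both steps, 1.14 ± 0.25 from E9.5 to E10.5 and 0.84 ± 0.25 from E10.5 to E12.5. Its signal was 11.7, 34.7 and 62.4 in the knockout, against 13.8, 37.4 and 77.2 in wild type (1.98 ± 0.25, adjusted p = 9.38e-05). Each age stood clear of the previous one in both genotypes. Cacna1c, an L-type pore (1.12 ± 0.34), and Cacna1b, the N-type pore of nerve terminals (1.06 ± 0.26), also rose. Cacna1g, a second T-type gene, differed by 0.19 ± 0.23, and Cacna1a, the pore of the P/Q-type channel, by -0.54 ± 0.26. Neither of these passed.

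Of the other calcium channel subunits, Cacnb4, a cytoplasmic beta subunit, rose by 1.77 ± 0.29, while Cacnb2 differed by -0.28 ± 0.26 and did not pass. The 3 tested gamma subunits rose, and all 3 belong to the branch that also serves as accessory subunits of AMPA glutamate receptors. Cacng4 signal was 42.1, 60.4 and 213 in the knockout, E9.5 then E10.5 then E12.5, against 31.4, 105 and 258 in wild type. It increased in both steps in both genotypes (2.49 ± 0.24, adjusted p = 2.11e-05), and its second probe set differed by 1.58. Cacng2 rose by 0.97 ± 0.27 and Cacng7 by 0.59 ± 0.21, a call that Cacng7 lost in the fit without a filter (adjusted p = 0.0908). Cacna1b, Cacna2d2, Cacng2, Cacng7 and the members that did not pass fall outside the rule for named genes and are named after their values were seen.

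Potassium channel genes went both ways within single families. Among Kv alpha subunits, which form the delayed and transient outward currents, the 2 tested Kcnd genes rose and the 3 tested Kcna genes fell. Kcnd3 signal was 29.9, 23.9 and 179 in the knockout, against 40.8, 22.4 and 188 in wild type. The rise came after E10.5 in both genotypes (2.20 ± 0.21, adjusted p = 1.97e-05). Kcnd2, the second A-type gene, rose by 1.86 ± 0.26. Its dimmer probe sets differed by 1.75, 1.43 and -0.06. Kcna1, a low-threshold channel of mature axons, had signals of 60.0, 21.7 and 9.65 in the knockout, E9.5 then E10.5 then E12.5, against 54.7, 21.4 and 9.33 in wild type. It declined at each step and the genotypes lay close together at every age (-1.996 ± 0.28, adjusted p = 2.01e-04). The 3 dimmer Kcna1 probe sets differed by -1.18, -1.74 and -0.21. Kcna5, a channel known from heart and vessel muscle, fell by 1.52 ± 0.26. Kcna7, known from muscle, differed by -1.27 ± 0.48 (adjusted p = 0.0428) but lost its call under every alternative of scaling, pseudocount, filter, probe choice and variance trend in which it was tested (adjusted p from 0.0557 to 0.148), and without the wild-type E9.5 array the difference was -0.64.

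Leak channels split in the same manner. Kcnk10 and Kcnk2, both channels gated by stretch and lipids, rose by 2.48 ± 0.53 and 1.80 ± 0.41. At E9.5 Kcnk2 stood at 36.1 in the knockout against 7.37 in wild type, and the 4 later arrays lay between 47.3 and 84.8. Without the wild-type E9.5 array its difference was 0.87, and without the wild-type E12.5 array it lost its call (1.36, adjusted p = 0.0995). Kcnk10 lost its call without the knockout E12.5 array (1.78, adjusted p = 0.0953). Kcnk1, a weak leak channel of kidney and brain, had signals of 162, 104 and 24.0 in the knockout, E9.5 then E10.5 then E12.5, against 154, 116 and 28.1 in wild type. It declined at each step in both genotypes (-2.34 ± 0.18, adjusted p = 4.79e-06), although its dimmer probe set differed by 0.16. Kcnk6, a relative of Kcnk1, fell by 1.75 ± 0.26. Kcnk5, an acid-sensitive channel of epithelia, stayed between 59.9 and 65.7 on all 6 arrays (-0.06 ± 0.19).

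Among the calcium-activated channels, Kcnn4, the intermediate-conductance channel of blood cells and epithelia, had signals of 59.3, 46.8 and 5.53 in the knockout, against 51.7, 76.9 and 3.55 in wild type. It was present at both early ages and close to the floor of the array at E12.5 (-2.49 ± 0.30, adjusted p = 8.48e-05). Kcnn1, a small-conductance channel of neurons, rose by 1.15 ± 0.31, a call lost without the wild-type E9.5 array (0.66) or the wild-type E12.5 array (0.87). Kcne3, an accessory subunit that holds an epithelial channel open, fell by 1.78 ± 0.25, with 67.2, 69.3 and 10.9 in the knockout and 44.8, 61.8 and 11.9 in wild type. Kcnj11, the pore of the ATP-sensitive potassium channel, was the only inward rectifier tested. Its signal was 755, 346 and 395 in the knockout, against 810, 489 and 374 in wild type (-1.01 ± 0.13, adjusted p = 1.39e-04). This fall lay between E9.5 and E10.5, and its regulatory partner Abcc8 did not pass the filter. The 2 Kcnh genes tested, Kcnh2 and Kcnh3, and the sodium-activated Kcnt1 did not pass (-0.09 ± 0.20, -0.31 ± 0.26 and -0.48 ± 0.33).

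**Figure D2:**
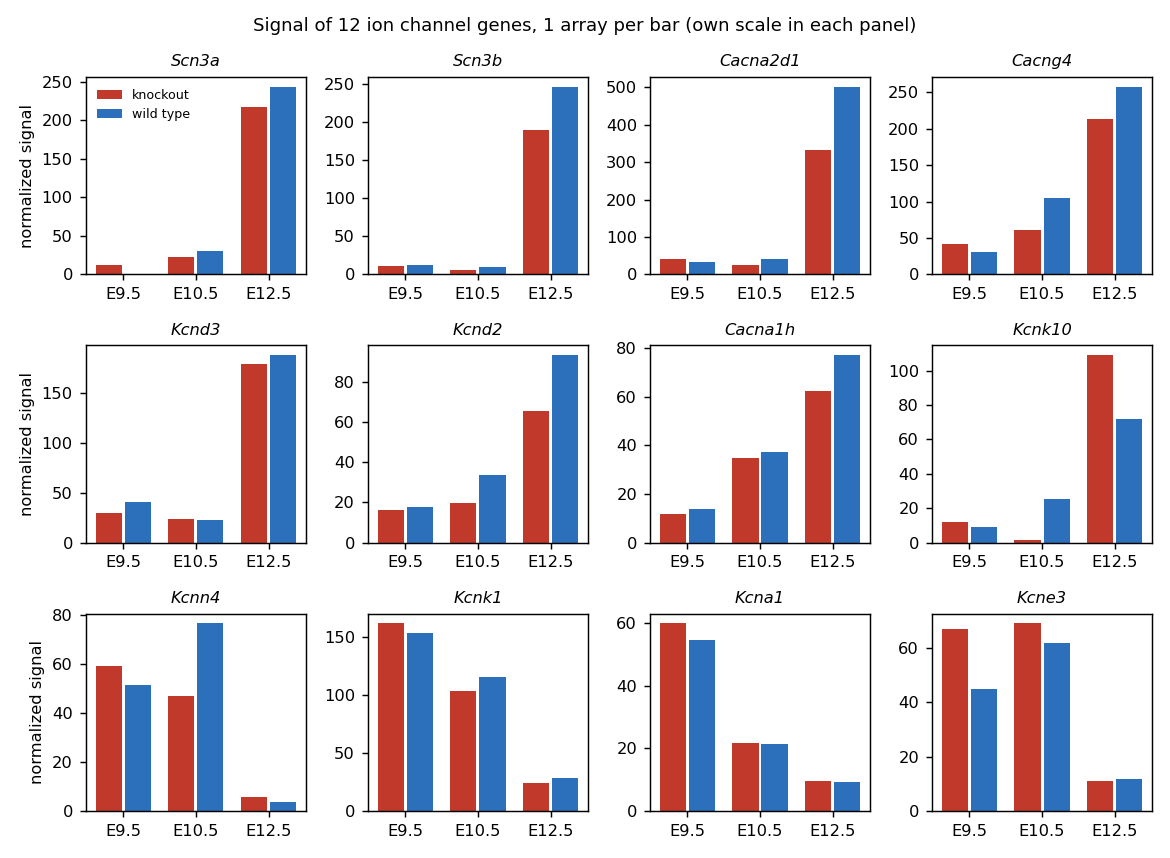
Normalized signal of 12 ion channel genes, 1 array per bar, by age, with the knockout left of wild type. The scale starts at 0 and differs between panels. In Scn3a, Scn3b, Cacna2d1 and Kcnd3 both E12.5 bars stand far above the rest, while Kcnk1 and Kcna1 decline with age in both genotypes.

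Most of the rise came in the second step. From E10.5 to E12.5 14 members rose and 6 fell, against 20.2% and 29.9% of all tested genes. In the values as deposited 28 rose and 3 fell, against 76.5% and 3.71% of all genes, so these counts move with the whole array. Fewer members rose and fewer fell in this step when either E12.5 array was left out, which leaves 1 array at E12.5. No all-gene counts stand beside the fits with an array left out, so this loss cannot be set against that of other genes. From E9.5 to E10.5 4 rose (Scn3a, Kcnk2, Cacna1h and Cacng4) and 3 fell (Kcnj11, Kcna1 and Kcnk6), against 13.8% and 15.1% of all tested genes. In the values as deposited 3 rose and 10 fell in this step, against 4.81% and 48.3% of all genes. Without either the wild-type E9.5 or the wild-type E10.5 array fewer members rose and fewer fell in this step. Over the 17 rising members, the median change from E9.5 to E10.5 was -0.05 in the knockout against 0.66 in wild type. From E10.5 to E12.5 it was 1.44 in the knockout against 1.24 in wild type. With 1 array per group the difference between genotypes in a step could not be tested.

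**Figure D3:**
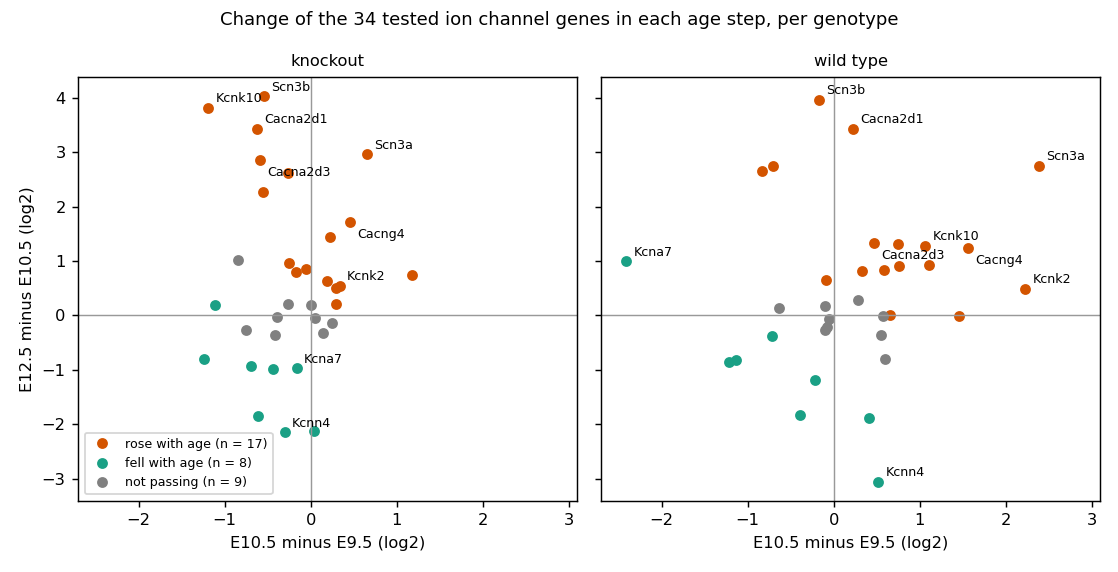
Change of the 34 tested ion channel genes from E9.5 to E10.5 (horizontal axis) and from E10.5 to E12.5 (vertical axis), on the log2 scale, in the knockout (left) and wild type (right). Colours mark genes that rose, fell or did not pass between E9.5 and E12.5. Kcnk10 and Cacna2d3 lie left of 0 in the knockout and right of 0 in wild type.

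Families without a tested member were also read. All 9 modifier Kv subunits, the 3 Kcnq and the 2 Hcn genes lay under the filter. In the fit without a filter, 12 of the 71 dim members rose (16.9%) and 3 fell (4.23%), against the 16.0% and 21.6% of all genes given above. Those all-gene shares include the brighter tested genes. The share among dim genes alone was not counted, so no background of like brightness stands beside the dim members. Named after their values were seen, the rising dim members included Scn2a, the main sodium channel pore of cortical neurons. Its signal was 0.609, 0.695 and 32.1 in the knockout, E9.5 then E10.5 then E12.5, against 3.22, 0.967 and 33.1 in wild type (2.23 ± 0.33, adjusted p = 9.55e-04). Kcnq3, a subunit of the M-current that limits firing, had 1.93, 2.85 and 36.6 in the knockout, against 2.005, 0.613 and 50.9 in wild type (2.55 ± 0.35). Hcn3, a hyperpolarisation-gated channel, rose by 2.12 ± 0.34 and the calcium channel beta subunit Cacnb1 by 2.95 ± 0.38. By these probe sets all 4 were near the floor at E9.5 and above the median signal in both genotypes at E12.5. The Cacnb1 rise rests on 1 of 4 probe sets, and the other 3 differed by 0.02, -0.54 and -0.67. The other 3 Scn2a probe sets differed by 2.07, 0.98 and 1.17. On the E12.5 arrays 42 of the 105 members lay above the median signal in either genotype, and on the E9.5 arrays 32 in the knockout and 26 in wild-type tissue. On the E10.5 arrays it was 23 in the knockout and 33 in wild-type tissue, so the count did not climb steadily with age. No share over all genes stands beside these counts.

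Genes that work with the channels were listed separately. Of 38 such partners 35 had a probe set, and 16 were tested. From E9.5 to E12.5 11 of these rose and 1 fell, against 25.9% and 36.9% of all tested genes. The partners named below fall outside the rule for named genes and all passed, and tested partners that did not pass are not named. Dpp6, an accessory subunit of Kcnd channels, rose by 1.61 ± 0.32. The ankyrin genes Ank2 and Ank3, of which Ank3 anchors sodium channels on the axon, rose by 3.65 ± 0.16 and 1.60 ± 0.11. Nfasc and Fgf14, proteins of the axon initial segment, rose by 2.02 ± 0.24 and 2.24 ± 0.25. Nalcn, a sodium leak channel, rose by 1.79 ± 0.27. Rest, a repressor of neuronal genes that include sodium channels, was the partner that fell (-0.56 ± 0.12, adjusted p = 0.00325), and the corepressor Rcor2 rose by 1.39 ± 0.14.

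Markers of several cell types moved over the same ages. All 17 tested genes of young neurons rose, with a median of 4.25, and their summed signal was 20555 in the knockout and 20407 in wild-type tissue at E12.5, and 978 in the knockout and 819 in wild-type tissue at E9.5. Of 9 neural progenitor genes 7 rose and 0 fell, with sums of 18569 in the knockout and 17284 in wild-type tissue at E12.5, and 8541 in the knockout and 7352 in wild-type tissue at E9.5. Of 3 tested erythroid genes 2 fell, and 3 of the 4 measured lay above the median signal on every array. Of 5 tested surface ectoderm genes 4 fell, and the sum of the 6 listed was 96.1 in the knockout and 116 in wild-type tissue at E12.5, and 957 in the knockout and 842 in wild-type tissue at E9.5. Of 8 head mesenchyme and neural crest genes 6 fell and 1 rose, with sums of 1428 in the knockout and 2019 in wild-type tissue at E12.5, and 4388 in the knockout and 3306 in wild-type tissue at E9.5. Most muscle and heart markers were dim, with at most 2 of 6 above the median signal on any array and 0 on both E12.5 arrays. The 1 that was tested fell (-1.71). Of 6 tested endothelial genes 1 rose and 2 fell, and of 3 tested pericyte genes 1 rose and 1 fell. The part of these cell types in the rise and fall of channel genes was not tested, and in whole tissue fewer cells of a type and less RNA per cell cannot be told apart.

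Several members lie side by side on a chromosome in the gene order of GRCm38.p6. Scn3a and Scn2a are neighbours on chromosome 2 and were both higher at E12.5. Scn1a, Scn9a and Scn7a form a second run on that chromosome and did not pass the filter; in the fit without it, Scn1a (1.74 ± 0.37) and Scn9a (1.24 ± 0.41) rose. Kcna5, Kcna1 and Kcna6 are consecutive on chromosome 6; the first pair fell, and Kcna6 was under the filter. Cacng4 lies between Cacng1 and Cacng5 on chromosome 11, and both of these stayed under the median signal on all arrays.

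Promoter windows from RefSeq (GRCm38.p6), running from 250 bases before to 50 after a transcript start, were available for 78 of the 105 members. They are shown for Cacna2d1 and Kcnd3, which rose, and Kcnn4, which fell, as examples of windows with many and with few CG dinucleotides, the sites of DNA methylation. Capitals mark each CG, and all are written 5′ to 3′ on the gene's strand.
Cacna2d1: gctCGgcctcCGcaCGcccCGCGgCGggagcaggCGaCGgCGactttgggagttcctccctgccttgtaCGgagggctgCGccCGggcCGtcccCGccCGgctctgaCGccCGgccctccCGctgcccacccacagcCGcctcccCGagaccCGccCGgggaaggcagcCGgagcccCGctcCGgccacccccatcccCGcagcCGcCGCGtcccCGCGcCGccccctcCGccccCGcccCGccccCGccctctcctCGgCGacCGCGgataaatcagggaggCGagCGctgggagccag
Kcnd3: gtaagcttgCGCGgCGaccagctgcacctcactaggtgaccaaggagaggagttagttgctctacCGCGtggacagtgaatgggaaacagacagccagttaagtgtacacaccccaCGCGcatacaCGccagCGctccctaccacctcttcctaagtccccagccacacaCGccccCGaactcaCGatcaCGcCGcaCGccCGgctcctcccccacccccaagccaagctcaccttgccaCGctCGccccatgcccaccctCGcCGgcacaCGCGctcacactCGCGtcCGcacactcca
Kcnn4: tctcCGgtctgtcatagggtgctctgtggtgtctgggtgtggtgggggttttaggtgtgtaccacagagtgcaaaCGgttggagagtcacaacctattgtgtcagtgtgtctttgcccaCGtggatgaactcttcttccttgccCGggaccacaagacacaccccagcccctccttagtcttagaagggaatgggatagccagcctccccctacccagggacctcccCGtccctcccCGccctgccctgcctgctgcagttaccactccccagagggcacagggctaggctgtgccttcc
The Cacna2d1 window is chr5:15934441-15934740 (plus strand) and holds 42 CG dinucleotides, the Kcnd3 window is chr3:105451640-105451939 (plus strand) and holds 25, and the Kcnn4 window is chr7:24370013-24370312 (plus strand) and holds 6. Over all windows the count ran from 3 to 57 in rising members and from 4 to 12 in falling members, and the ranges overlap. Among members with exactly 1 window it ran from 15 to 43 in 8 rising and from 4 to 10 in 4 falling members. The examples were chosen after their values were seen, and the difference was not tested. All 32851 windows in the table had a median of 7 with quartiles of 3 and 20. Members with several windows varied within a gene: the 3 Cacna1c windows held 57, 7 and 3. The letters TTCAGCACC, an arm of the element bound by Rest, were searched on both strands and stood in 0 of the 103 windows of members, against 0.371% of all windows. At so low a share, 0 in 103 windows is a likely outcome, and the search cannot show that members lack the element.

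The second comparison asked how the knockout differed from wild type. No tested member passed across the 3 ages (limma, age as a block), with mean differences from -0.77 (Cacna2d3) to 0.50 (Kcnn1), the smallest adjusted p at 0.999 and 1 member, Cacna2d3, at an unadjusted p under 0.05 (511 of all tested genes). Among all tested genes 0.0180% rose and 0.0541% fell. In this fit an effect at 1 age counts as error, so the absence of calls does not speak to differences at single ages. Higher in the knockout at all 3 ages were 5 members and lower 7, of 34, against 13.1% and 11.5% of all tested genes, and no tested member differed by 0.3 or more in 1 direction at every age. The embryos of the E10.5 pair differed in Xist, which coats the inactive X (11.7 in the knockout against 573 in wild type), and the 2 members on the X chromosome were not tested.

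At single ages a difference of 2-fold, with the brighter array above 24.0, was counted and not tested. At E9.5 2 of 34 members were higher in the knockout and 0 lower, against 0.685% and 0.469% of all tested genes. Kcnk2 stood at 36.1 in the knockout against 7.37 in wild type (1.62), and Kcnn1 at 33.8 in the knockout against 11.7 in wild type (1.15). The second Kcnn1 probe set went the other way, with 5.44 in the knockout against 28.2 in wild type (-1.54), and the mean over both gave -0.20.

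At E10.5 the channel genes that rise with age tended to be lower in the knockout. Of 34 tested members 23 were lower (67.6%), against 52.2% of all tested genes, with 14 of the 17 rising members among them (median -0.37) and 3 of the 8 falling ones. The rising members were chosen from the age comparison of the same arrays, and these counts are a description. By the 2-fold rule 3 were lower and 1 higher, against 0.820% and 0.424% of all tested genes. Cacna2d3 stood at 4.995 in the knockout against 29.1 in wild type (-1.63), and Kcnk10 at 1.71 in the knockout against 25.7 in wild type (-1.97). Cacna1c stood at 17.9 in the knockout against 44.2 in wild type (-1.05), and Kcna7 at 39.7 in the knockout against 6.08 in wild type (1.87). The second probe sets of Kcnk10 (1.08) and Cacna1c (1.15) went the other way, so that the mean over probe sets gave -0.45 and 0.05, while Cacna2d3 and Kcna7 have 1 probe set each. Cacng4, below the 2-fold rule, had 60.4 in the knockout against 105 in wild type, and its second probe set 47.0 in the knockout against 115 in wild type.

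Young neuron markers were lower on the same array. Of 17 tested 15 were lower in the knockout at E10.5 (median -0.64), and the summed signal was 2002 in the knockout against 3275 in wild type. Their part in the channel difference was not tested. The direction also depends on how the arrays are scaled: in the deposited values, where all tested genes had a median of 0.26, 16 of 34 members were lower in the knockout and 27 lay below that median. With a common trimmed mean 27 of 34 were lower. In the deposited values Kcnk10 (-1.50) and Cacna2d3 (-1.25) stayed more than 2-fold lower in the knockout, but their brighter arrays no longer met the brightness condition, and Cacna1c differed by less than 2-fold, so that none was counted.

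At E12.5 no tested member differed 2-fold in either direction (0 of 34 higher and 0 lower, against 0.379% and 0.216% of all tested genes). At such low shares 0 of 34 is a likely outcome and says nothing particular to the channel genes. Differences of the tested members ran from -0.59 to 0.57. Of the 17 rising members 15 were lower in the knockout, with a median of -0.21, while young neuron markers had a median of 0.01. In the deposited values 9 of the 17 were lower and 15 lay below the median of all genes. Cacna2d1 had the lowest difference, with 332 in the knockout against 503 in wild type (-0.59), and its other probe sets gave -0.66, 0.51, -0.22 and -0.02. Kcnk10 had the highest, with 109 in the knockout against 71.7 in wild type (0.57; second probe set 0.39). Head mesenchyme markers summed to 1428 in the knockout against 2019 in wild type at this age, and Ttr, the leading choroid plexus marker, stood at 278 in the knockout against 2855 in wild type. Their part in the channel values was not tested. Whether the small shift of the rising members at E12.5 exceeds the spread between arrays could not be tested with 1 array per genotype.

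**Figure D4:**
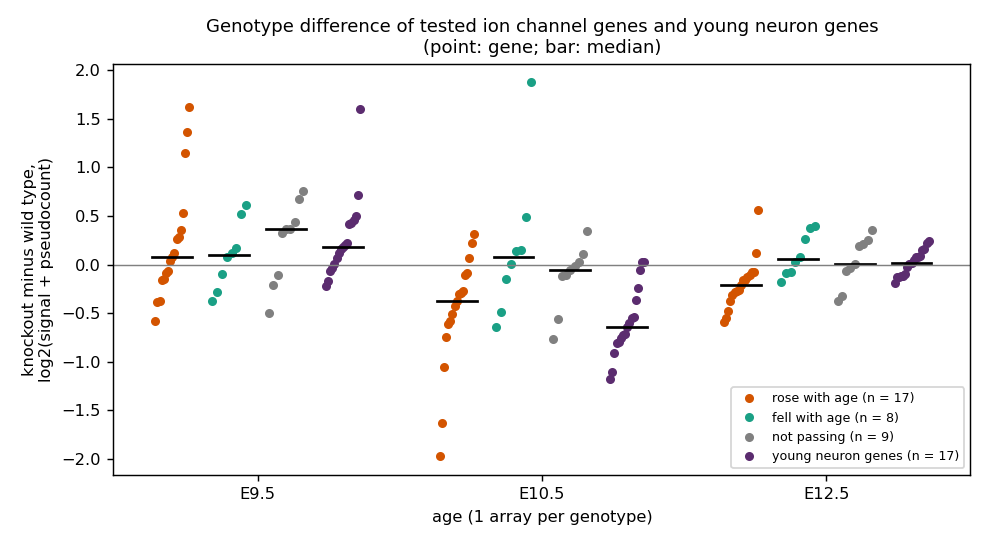
Knockout minus wild type at each age, on the log2(signal + pseudocount) scale, for tested ion channel genes that rose, fell or did not pass between E9.5 and E12.5, and for 17 young neuron genes. Points are genes and bars are medians. At E10.5 the medians of the rising channel genes (-0.37) and of the young neuron genes (-0.64) lie below 0, and at E12.5 the spread is narrower.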

How the data were processed

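RNA of 6 forebrain samples was hybridised to Affymetrix arrays, 1 per genotype and age. Groups came from the sample titles. Each deposited value is a linear intensity of a probe set; MAS5 is named in the submitters' processing notes. Any scaling target is not given in the sources used here, and the number of arrays limits precision.

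From these, signals were quantile normalized (limma 3.58.1, R 4.3.3), because deposited levels differed between arrays, and taken as log2(signal + 6.50), the lower quartile of all values. A gene takes its brightest of 34958 single-symbol probe sets, by the mean of deposited values, and 61 of 105 members have more than 1. All 105 matched a RefSeq entry by Entrez identifier. Genes brighter on average than the median probe set entered lmFit and eBayes with a trend, on age and genotype (2 residual degrees of freedom, 9.40 after moderation), with Benjamini-Hochberg adjustment over all tested genes. The code was tested on simulated data. P-values measure only the spread between these arrays, and nothing says which embryos they share. Members and lists were chosen with earlier results of these data known. The rule named up to 12 members per direction for age, those past 2-fold per age, and 2 examples per remaining family. Alternatives changed scaling, pseudocount, filter, probe choice, variance trend, age block and arrays left out.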

Additional observations from a re-analysis of the deposited data

How the results depend on the processing

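Between E9.5 and E12.5, each of the 17 rising and 8 falling members kept its direction wherever it was still tested under the 6 changes of scaling, pseudocount, filter and probe choice. With values as deposited the counts were 10 lower from E9.5 to E10.5, 28 higher and 3 lower from E10.5 to E12.5, and 0 members past the 2-fold rule as lower in the knockout at E10.5, where Kcnk10 (-1.50) and Cacna2d3 (-1.25) kept the fold and missed the brightness condition. With a common trimmed mean 1 member was 2-fold higher at E9.5. Without a filter 28 members rose from E9.5 to E12.5, and 5 showed the 2-fold excess at E9.5. A filter at the 75th percentile left 1 member, Kcnj11, which fell (1) from E9.5 to E12.5 and from E9.5 to E10.5, and all other counts were 0. With the mean of all probe sets 16 members were tested, among 10074 genes: 5 rose from E9.5 to E12.5, 0 rose and 1 fell from E9.5 to E10.5, 3 rose from E10.5 to E12.5, and 1 was 2-fold higher at E9.5 and 1 lower at E10.5. Of the 17 rising members 5 were still tested with this mean, and all 5 passed. No all-gene shares stand beside these counts, so they do not show whether members rose more often than other genes with this mean. There the genotype difference of Kcnn1 at E9.5 was -0.20 and that of Cacna1c at E10.5 was 0.046, both reversed. Without a trend in the variance 1 member rose from E9.5 to E10.5. Leaving out 1 array at a time, from E9.5 to E12.5 11 to 17 rose and 7 to 8 fell, from E9.5 to E10.5 1 to 6 rose and 1 to 3 fell, and from E10.5 to E12.5 7 to 15 rose and 3 to 6 fell. The lowest of the last were without an E12.5 array. No member passed for genotype in either direction under any alternative, the age pairs left out in turn included (0 higher and 0 lower). Beyond the loss of members to the filters, the cause of these moves was not tested. No paired analysis was possible because the labels carry no replicate numbers; age served as the block.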
